A study of Homo sapiens with 60 samples.

Results

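The comparison described here set SW1783 cells exposed to a water extract of the decoction Soshiho-tang at 500 µg/mL (high dose) against the same cells exposed to 20 µg/mL (low dose). Its members were found by their sample labels: the high-dose replicates 2 and 3 and the low-dose replicates 2 and 3, which makes 4 of the 60 libraries of the series. SW1783 is an established human astrocytoma line, grown in Leibovitz's L-15 medium with fetal bovine serum, and cells were collected after 24 h. The series asked which transcripts change in these cells under several herbal extracts, and every library was made from total RNA with a strand-specific kit. All 4 libraries, the 2 libraries at 100 µg/mL (medium dose) and those of another decoction, Yijin-tang, share the first part of the library name, which the sources used here do not explain. The 3 vehicle libraries received dimethyl sulfoxide, at 0.1% in their labels and at another concentration in the design text of the series. They form a name group of their own, so they served only as a second reference, and treatment and name group cannot be told apart in any comparison with them. Nothing in the labels says that replicates were grown and treated apart, so the p-values reflect how far libraries of a group vary and nothing more. That spread was estimated over 54 libraries of the series, most of them from other extracts.

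Soshiho-tang is a decoction of several herbs used in East Asian medicine, with Bupleurum root and Scutellaria root among them. Cells that meet foreign compounds commonly answer with a small number of shared programmes. The transcription factor ATF4 is translated when initiation of protein synthesis is restrained, and it drives amino acid synthesis, amino acid uptake and tRNA charging. NRF2 drives antioxidant and haem-degrading enzymes, NF-kB drives chemokines and cytokines, and SREBP proteins drive sterol and fatty acid synthesis. In a glial tumour line these programmes run beside the production of collagen, the answer to bone morphogenetic proteins and cell division.

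Total counts were 29.82 and 30.42 M at the high dose, 19.02 and 27.70 M at the low dose, 27.72 and 32.34 M at the medium dose and 18.73 to 20.47 M in the vehicle. Transcripts of the mitochondrial genome took 13.10 and 13.06% of counts at the high dose and 12.74 and 12.14% at the low dose, and the part of depth in the results was not tested. Both replicate pairs differed by more than sampling noise, with a chi-square per degree of freedom of 2.78 at the high and 2.35 at the low dose, so neither pair was a copy of a single library. Levels are given in CPM, counts scaled to a common library size and corrected for library composition. Of 12 astroglial and neural stem markers 7 stayed below 1 CPM in the high, medium, low and vehicle groups, among them GFAP, S100B, AQP4 and ALDH1L1. The other 5 were VIM, SOX9, GJA1, NES and the glutamate transporter SLC1A3. AIF1, TYROBP and CD3E, markers of microglia and T cells, were at 0 in all 4 groups, and the summed level of 9 microglia and leukocyte markers was 223 to 240 CPM at the high dose and 204 to 212 CPM at the low dose, most of it CD68.

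Between 500 and 20 µg/mL, 1770 genes rose and 1546 fell among 17851 tested, which is 9.92% and 8.66% of them (18.6% in all). A gene passed when its adjusted p in edgeR's quasi-likelihood test with Benjamini-Hochberg adjustment was under 0.05. Most differences were small. The median absolute log2 fold change of the genes that passed was 0.407, and 215 rises and 224 falls reached 2-fold. Each library was left out in turn, with the spread then taken from all other groups. This left 2149 to 2286 genes past the threshold, the fewest without low-dose replicate 3. Where the lack of 1 library ended a call described below, its adjusted p or log2 fold change is given after the results of that group. Such a fit leaves 1 library in a group, and fewer genes passed whichever library was left out. A lost call is therefore no evidence that the result came from that library. The median over all genes tested was 0.001, the value against which the medians of gene lists below are read. Counts of list members are read against the shares of all genes tested, 9.92% for rises and 8.66% for falls. In RNA from whole cultures, less RNA per cell and fewer cells of a kind cannot be told apart.

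**Figure D1:**
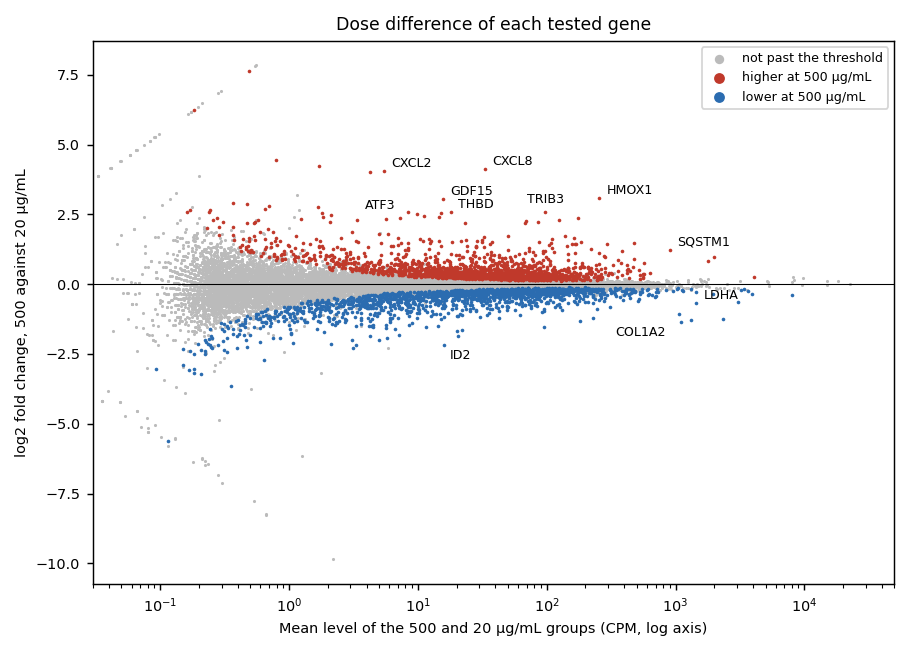
Each point is 1 of 17851 tested genes; the horizontal axis is the mean level of the 500 and 20 µg/mL groups in CPM on a log axis and the vertical axis the log2 fold change between them. Red points are the 1770 rises and blue points the 1546 falls, and the labelled genes show that CXCL8, HMOX1 and TRIB3 lie far above the bulk of points while ID2 and COL1A2 lie below it.

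The 12 largest rises by the rule for named genes were led by the chemokines CXCL8, CXCL2 and CXCL3, and by HMOX1 and GDF15. CXCL8, the chemokine that draws neutrophils (chromosome 4, 73740506 to 73743716, plus strand), was at 63.9 and 62.5 CPM in the 2 high-dose libraries and at 3.57 and 3.64 CPM in the 2 low-dose libraries. Its log2 fold change was 4.13 ± 0.13 (SE, n = 2 against 2, adjusted p = 5.06e-27). HMOX1, the haem-degrading oxygenase (chromosome 22, 35380361 to 35394214, plus strand), stood at 454 and 459 CPM against 54.0 and 53.1 CPM, a rise of 3.09 ± 0.08 (adjusted p = 2.06e-30). GDF15, a circulating stress hormone of the TGF-beta family (chromosome 19, 18374731 to 18389176, plus strand), went from 3.47 and 3.32 CPM to 27.8 and 28.4 CPM (3.05 ± 0.14, adjusted p = 1.64e-21). The naming rule itself required both high-dose libraries to lie beyond all low-dose and vehicle libraries. In each of these 3 genes they also lay above the 2 medium-dose libraries, which the rule did not use. THBD, the thrombin receptor thrombomodulin, was at 30.7 and 31.5 CPM against 4.62 and 5.53 CPM (2.60 ± 0.08). The vehicle libraries of THBD stood at 8.36, 8.64 and 8.97 CPM, above both low-dose libraries. Against the vehicle its log2 fold change was smaller, 1.845 ± 0.07. ADM2, a peptide hormone of the adrenomedullin family, was at 25.5 and 26.5 CPM against 4.36 and 4.46 CPM (2.56 ± 0.12), and CLDN1, a tight junction protein, at 24.7 and 24.6 CPM against 4.68 and 4.60 CPM (2.41 ± 0.15). The other named rises were CXCL2, CXCL3, IL6, ATF3 and TRIB3, described with their groups below, and KRTAP2-3 (2.44 ± 0.18), a keratin-associated protein whose near-identical neighbours can share its reads. In all, 1420 rises met the rule before the 12 largest were taken.

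Among the 12 largest falls were regulators of transcription. ID2, a helix-loop-helix protein that blocks other transcription factors (chromosome 2, 8678845 to 8684453, plus strand), was at 6.22 and 5.36 CPM at the high dose and 27.1 and 25.3 CPM at the low dose (-2.17 ± 0.12, adjusted p = 5.01e-19). MIR210HG, the host transcript of the hypoxia microRNA miR-210 (chromosome 11, 565660 to 568457, minus strand), stood at 1.23 and 0.883 CPM against 5.10 and 5.24 CPM (-2.29 ± 0.21, adjusted p = 1.12e-11). The 2 medium-dose libraries lay above both high-dose libraries in these 2 genes. ATOH8, a helix-loop-helix transcription factor, fell by 1.68 ± 0.08 on the log2 scale, from 30.2 and 30.9 CPM to 10.4 and 8.70 CPM. LYPD1, a membrane-anchored protein of the LY6 family, fell by 1.65 ± 0.07, from 34.5 and 32.1 CPM to 10.9 and 10.3 CPM. VAV3, an exchange factor for small GTPases, was at 1.83 and 2.16 CPM against 7.83 and 8.27 CPM (-2.01 ± 0.15), with 13.1, 13.5 and 12.8 CPM in the vehicle libraries, above both doses. LGR6, a receptor for R-spondins, went from 5.99 and 4.89 CPM to 1.33 and 1.05 CPM (-2.18 ± 0.23), with 3.40 and 3.28 CPM at 100 µg/mL between them. RASL11A, a Ras-like GTPase (-1.94 ± 0.14), LINC02593 (-1.83 ± 0.14), FAM13C (-1.55 ± 0.13), EGLN3 and TCAF2 (-1.60 ± 0.12) were the others described here. TCAF2 has a close paralog that can share its reads, and 1169 falls met the rule in all.

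Genes of the amino acid response rose together. Of the 20 ATF4 regulators and sensors tested 15 rose and none fell, with a median log2 fold change of 0.95, where 9.92% of all genes tested rose. ATF4 itself was at 437 and 421 CPM at the high dose and at 160.1 and 155 CPM at the low dose (1.45 ± 0.07, adjusted p = 8.91e-21). TRIB3, a pseudokinase that dampens ATF4, was at 165 and 165 CPM against 28.8 and 27.1 CPM (2.57 ± 0.09, adjusted p = 2.93e-25). SESN2, a leucine sensor that restrains mTORC1, was at 113 and 108 CPM against 25.6 and 23.2 CPM (2.18 ± 0.07, adjusted p = 5.06e-27). Low-dose and vehicle libraries lay close together in these genes, and the high-dose libraries stood apart from both. CHAC1, which degrades glutathione, was at 39.6 and 36.5 CPM against 7.83 and 8.56 CPM (2.21 ± 0.11), and ATF3, a stress-induced repressor of the same protein family, at 14.7 and 14.1 CPM against 2.84 and 2.10 CPM (2.57 ± 0.16). DDIT3, which encodes CHOP, rose by 1.71 ± 0.14 and PPP1R15A, which restores translation by dephosphorylating eIF2alpha, by 1.65 ± 0.09. Of the 4 kinases that phosphorylate eIF2alpha, EIF2AK3 (PERK) rose by 0.81 ± 0.10, while EIF2AK1 (-0.01 ± 0.08), EIF2AK2 (-0.07 ± 0.10) and EIF2AK4 (0.05 ± 0.08) did not pass. ATF5 (0.10 ± 0.09) and VLDLR (0.10 ± 0.07) did not pass either.

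Promoters of these genes are shown because a composite element read by ATF4 and C/EBP proteins is known in some genes of this response. RefSeq promoter windows on GRCh38.p14, from 250 bases before to 50 bases after the annotated start, were searched on both strands for the letters TGATGNAAN. The letters were present in 14 of the 40 rising members of the 4 amino acid lists with a window and in 3.61% of 35116 windows of the same length over all genes. Of all 58 members with a window, risen or not, 14 held the letters. Here and in the searches below, only the first listed window of a member was searched. The windows over all genes can include several of the same gene, so the shares are not of like units. The lists were also made of genes known for the response in question, and the shares were not compared by a test. The 3 matching members with the largest rises are printed 5′ to 3′ on the strand of the gene, with the matched bases in capitals.
ATF3 (chr1:212565157-212565456, plus strand): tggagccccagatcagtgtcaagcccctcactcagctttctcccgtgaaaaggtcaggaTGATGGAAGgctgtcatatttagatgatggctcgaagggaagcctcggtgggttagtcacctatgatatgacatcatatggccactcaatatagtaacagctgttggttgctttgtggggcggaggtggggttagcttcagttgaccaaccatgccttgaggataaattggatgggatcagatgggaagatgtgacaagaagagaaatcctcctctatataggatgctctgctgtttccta
CHAC1 (chr15:40953221-40953520, plus strand): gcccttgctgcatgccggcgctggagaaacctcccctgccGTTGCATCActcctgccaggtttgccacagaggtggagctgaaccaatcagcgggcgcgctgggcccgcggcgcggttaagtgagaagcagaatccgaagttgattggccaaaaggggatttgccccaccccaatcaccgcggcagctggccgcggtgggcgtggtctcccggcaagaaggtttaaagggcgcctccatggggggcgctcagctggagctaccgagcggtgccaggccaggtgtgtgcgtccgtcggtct
ASNS (chr7:97872359-97872658, minus strand): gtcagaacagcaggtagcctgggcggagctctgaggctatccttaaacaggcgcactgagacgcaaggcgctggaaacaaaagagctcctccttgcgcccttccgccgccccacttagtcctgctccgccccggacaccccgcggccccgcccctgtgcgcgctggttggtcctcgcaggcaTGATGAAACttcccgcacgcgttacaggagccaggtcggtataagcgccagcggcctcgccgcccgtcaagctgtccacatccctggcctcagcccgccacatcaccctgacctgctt
The match began at position -191 from the start in ATF3, at -210 in CHAC1, where it reads on the opposite strand, and at -68 in ASNS. A match is a description of the letters and was not tested as a site.

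Enzymes that the ATF4 programme serves rose as well. In the list of serine, one-carbon and amino acid synthesis 15 of 18 genes rose and 1 fell (median 0.64). ASNS, asparagine synthetase, was at 162 and 154 CPM against 60.6 and 53.2 CPM (1.48 ± 0.07, adjusted p = 3.56e-20). PSAT1, PSPH and PHGDH, the 3 enzymes of the serine pathway, rose by 1.16 ± 0.06, 0.35 ± 0.08 and 0.70 ± 0.10. MTHFD2, a mitochondrial folate enzyme, was at 133 and 137 CPM against 68.5 and 74.2 CPM (0.92 ± 0.06), and its cytosolic relative MTHFD1 was the fall, by 0.14 ± 0.04. The transsulfuration enzyme CTH rose by 1.53 ± 0.11, and so did CBS (1.53 ± 0.11), whose reads can be shared with a duplicated copy. The mitochondrial folate enzymes ALDH1L2 (1.50 ± 0.14) and SHMT2 (0.59 ± 0.07) rose while cytosolic SHMT1 (-0.10 ± 0.08) did not pass. The call of MTHFD1 ended in 3 of these fits. Its log2 fold change was -0.13 without high-dose replicate 2, -0.14 without high-dose replicate 3 and -0.11 without low-dose replicate 3.

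Transporters showed the same direction, with 8 of 13 tested members higher and 1 lower (median 0.52). SLC7A11, the cystine importer, was at 262 and 288 CPM against 96.0 and 95.9 CPM (1.52 ± 0.13), and its partner chain SLC3A2 at 349 and 346 CPM against 160.2 and 157 CPM (1.13 ± 0.08). The leucine carrier SLC7A5 rose by 1.01 ± 0.08, the glycine transporter SLC6A9 by 0.92 ± 0.09 and the glutamine carriers SLC1A5 and SLC38A1 by 0.46 ± 0.05 and 0.88 ± 0.12. SLC38A2, a system A carrier, did not pass (0.09 ± 0.11), and SLC7A8 fell by 0.58 ± 0.20. Of 20 cytosolic tRNA synthetases 12 rose and 1 fell (median 0.43). GARS1, for glycine, was at 376 and 378 CPM against 185 and 196 CPM (0.98 ± 0.05, adjusted p = 3.69e-20), and AARS1, MARS1 and CARS1 rose by 0.68 ± 0.04, 0.65 ± 0.04 and 0.70 ± 0.06. The synthetases for arginine, glutamine, histidine and lysine, RARS1 (-0.01 ± 0.06), QARS1 (-0.02 ± 0.05), HARS1 (-0.05 ± 0.06) and KARS1 (-0.07 ± 0.05), did not pass. For SLC7A8 the call ended, with adjusted p from 0.106 to 0.151 when any 1 of the 4 libraries was left out.

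Of 22 endoplasmic reticulum chaperone and folding stress genes tested 9 rose and 1 fell, with a median of 0.01. HERPUD1, which serves degradation of misfolded proteins, was at 219 and 208 CPM against 66.3 and 64.6 CPM (1.71 ± 0.06, adjusted p = 9.46e-27). DNAJB9 rose by 1.45 ± 0.09, the stress sensor kinase ERN1 by 1.32 ± 0.08, XBP1 by 0.77 ± 0.07 and the ubiquitin ligase SYVN1 by 0.60 ± 0.06. The chaperones HSPA5 (BiP; 0.12 ± 0.05, adjusted p = 0.0882), CALR (-0.01 ± 0.07), HYOU1 (0.04 ± 0.05) and SDF2L1 (-0.01 ± 0.13) were among the 12 members that did not pass, and HSP90B1 fell by 0.16 ± 0.05. In the cytosolic heat shock list 1 of 17 genes rose, the regulator HSF1 (0.39 ± 0.07), and 2 fell, DNAJA1 (-0.26 ± 0.07) and HSPA8 (-0.15 ± 0.04). These heat shock counts lie near those of any genes, as 9.92% of all genes tested rose and 8.66% fell. The fall of HSPA8 had adjusted p from 0.0743 to 0.106 when any 1 of the 4 libraries was left out, and that of HSP90B1 had adjusted p = 0.0784 without high-dose replicate 2, 0.279 without low-dose replicate 2 and 0.0622 without high-dose replicate 3.

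NRF2 targets rose without a fall, 14 of 26 tested (median 0.28). The largest rise was that of SLC7A11, which also stands in the transporter list above. GCLC, the catalytic subunit of glutathione synthesis, was at 55.8 and 57.2 CPM against 28.4 and 29.4 CPM (0.97 ± 0.06, adjusted p = 2.56e-17), and its modifier subunit GCLM rose by 0.56 ± 0.06. TXNRD1, thioredoxin reductase, was at 446 and 474 CPM against 259.8 and 250.2 CPM (0.85 ± 0.06). OSGIN1 (0.94 ± 0.08), MAFG (0.65 ± 0.07), SRXN1 (0.52 ± 0.06) and NQO1 (0.38 ± 0.07) rose, and so did AKR1C1 (1.04 ± 0.08), which has near-identical relatives. TXN (0.17 ± 0.12) and PRDX1 (-0.05 ± 0.09) did not pass. In the haem and iron list 10 of 17 rose and 2 fell (median 0.32). HMOX1, described above, was 8.52 times its low-dose level. The ferritin chains FTH1 and FTL were at 2632 and 2608 and at 2281 and 2262 CPM at the high dose, against 1375 and 1291 and 1301 and 1268 CPM at the low dose (0.97 ± 0.08 and 0.82 ± 0.09), with the reserve that both have many pseudogenes. ALAS1, the first enzyme of haem synthesis, rose by 0.66 ± 0.05 and BACH1, the haem-sensing repressor of HMOX1, by 0.62 ± 0.11. The transferrin receptor TFRC (-0.16 ± 0.10) did not pass. The falls numbered 1 without high-dose replicate 2 or low-dose replicate 3. The letters TGACNNNGC of the antioxidant response element were in 4 of 19 rising members with a window and in 13.35% of all windows.

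Cytokine genes formed the group with the largest folds. Of 10 chemokines tested 5 rose and 1 fell (median 1.27). CXCL1, CXCL2 and CXCL3, neighbours on chromosome 4 that bind the same receptor as CXCL8 and are alike enough to share reads, rose by 4.24 ± 0.42, 4.06 ± 0.26 and 4.01 ± 0.31. CXCL2 was at 11.1 and 9.55 CPM against 0.578 and 0.642 CPM, and CXCL1 at 3.76 and 2.81 CPM against 0.105 and 0.214 CPM, levels at which few reads stand behind the low-dose value. The filter for low counts keeps a gene that is high enough in a few libraries of any group. A gene near 0 at the low dose, as CXCL1 was, is thus tested through groups where it is higher. CXCL6, CXCL10, CCL7 and CCL20 did not pass the filter and are not among the 10 tested, which limits the count and the median of this list. CXCL5 rose by 2.39 ± 0.29. CXCL12, the ligand of CXCR4, went the other way, from 13.1 and 13.2 CPM to 6.75 and 6.08 CPM (-1.03 ± 0.09, adjusted p = 5.08e-12). The monocyte chemokine CCL2 (0.14 ± 0.15) and CCL5 (-0.35 ± 0.31) did not pass.

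The letters GGAATTTCC, a consensus for NF-kB, were searched in the same way because NF-kB is known to act at chemokine promoters, and the 3 matching members with the largest rises are shown. They were in 9 of 24 rising members of the chemokine, interleukin and NF-kB lists with a window, in 10 of all 32 with a window, and in 0.46% of 35116 windows.
CXCL1 (chr4:73869143-73869442, plus strand): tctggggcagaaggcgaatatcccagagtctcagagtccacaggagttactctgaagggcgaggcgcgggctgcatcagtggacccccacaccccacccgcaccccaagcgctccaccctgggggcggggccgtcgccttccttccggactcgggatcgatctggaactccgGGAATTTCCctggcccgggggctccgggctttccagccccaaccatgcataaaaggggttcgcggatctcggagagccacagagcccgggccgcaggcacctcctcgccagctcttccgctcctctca
CXCL8 (chr4:73740319-73740618, plus strand): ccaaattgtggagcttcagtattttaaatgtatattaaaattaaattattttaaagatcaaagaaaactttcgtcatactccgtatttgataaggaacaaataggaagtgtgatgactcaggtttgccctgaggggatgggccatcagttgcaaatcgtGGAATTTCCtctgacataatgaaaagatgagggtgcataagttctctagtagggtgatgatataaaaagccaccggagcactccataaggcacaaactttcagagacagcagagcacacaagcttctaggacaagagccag
CXCL2 (chr4:74099146-74099445, minus strand): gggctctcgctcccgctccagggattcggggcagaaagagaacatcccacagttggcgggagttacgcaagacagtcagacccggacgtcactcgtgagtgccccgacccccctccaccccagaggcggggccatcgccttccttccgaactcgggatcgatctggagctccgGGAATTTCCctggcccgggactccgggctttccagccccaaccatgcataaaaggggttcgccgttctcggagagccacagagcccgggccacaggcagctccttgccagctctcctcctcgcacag
The match began at -78 in CXCL1, -91 in CXCL8 and -77 in CXCL2. CXCL1 and CXCL2 are close paralogs, so their windows are not independent examples.

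Of 16 interleukins, colony-stimulating factors and adhesion genes 11 rose and none fell (median 1.29). LIF, a cytokine of the IL6 family, was at 116 and 114 CPM against 26.4 and 21.4 CPM (2.27 ± 0.09, adjusted p = 4.2e-24), and IL6 at 17.7 and 16.1 CPM against 2.52 and 3.25 CPM (2.53 ± 0.16). SOD2, the mitochondrial superoxide dismutase, was at 236 and 247 CPM against 91.7 and 86.9 CPM (1.44 ± 0.06), and ICAM1, an adhesion molecule, at 133 and 125 CPM against 46.6 and 44.1 CPM (1.51 ± 0.07). In all 4 the groups were far apart. IL1B rose by 1.35 ± 0.13, IL1A by 2.78 ± 0.33, IL32 by 1.24 ± 0.14 and PTGS2, the inducible cyclooxygenase, by 1.12 ± 0.12. PTGS2 stood at 79.3, 84.8 and 88.5 CPM in the vehicle libraries, between its low-dose (58.8 and 59.7 CPM) and high-dose levels (129 and 129 CPM). IL11 (0.08 ± 0.08) and CSF1 (0.04 ± 0.06) did not pass. Among NF-kB subunits and their inhibitors 13 of 16 rose and BCL3 fell by 0.59 ± 0.10 (median 0.67). The inhibitors TNFAIP3, NFKBIZ and NFKBIA rose by 1.38 ± 0.10, 1.62 ± 0.18 and 0.77 ± 0.11, the survival factor BIRC3 by 1.53 ± 0.11, and the subunits NFKB2 and RELB by 1.07 ± 0.09 and 1.15 ± 0.11, against 0.27 ± 0.07 for RELA and 0.40 ± 0.09 for NFKB1. RELA had adjusted p = 0.0987 without high-dose replicate 3 and 0.118 without low-dose replicate 3, and NFKB1 had adjusted p = 0.0879 without low-dose replicate 3.

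Of 19 immediate early transcription factors 12 rose and SRF fell by 0.30 ± 0.05 (median 0.58). JUN was at 226 and 230.0 CPM against 107 and 104 CPM (1.11 ± 0.06, adjusted p = 3.53e-18), MYC at 110.5 and 109 CPM against 52.8 and 53.6 CPM (1.04 ± 0.06), and KLF6 at 226 and 233 CPM against 82.3 and 85.9 CPM (1.45 ± 0.10). FOSB (1.79 ± 0.17) and KLF4 (1.63 ± 0.12) rose too, and FOS (0.09 ± 0.26) and JUNB (0.20 ± 0.10) did not pass. EGR1 stood at 96.9 and 103 CPM at the high dose, 57.1 and 49.2 CPM at the low dose and 143, 171 and 174 CPM in the vehicle. Its rise of 0.91 ± 0.32 (adjusted p = 0.0381) therefore was from a low-dose level below the vehicle, and against the vehicle its log2 fold change was -0.70 (adjusted p = 0.0569). Feedback genes and ligands of the ERK pathway rose in 12 of 16 cases, with 1 fall, TGFA (-0.37 ± 0.13) (median 0.77). DUSP5, a nuclear ERK phosphatase, was at 46.8 and 46.7 CPM against 16.2 and 15.3 CPM (1.58 ± 0.09), and PHLDA1 at 518 and 542 CPM against 234 and 229 CPM (1.20 ± 0.07). DUSP6 rose by 0.99 ± 0.09, SPRY2 by 0.94 ± 0.09 and the EGFR ligand HBEGF by 0.94 ± 0.08, whereas DUSP4 (0.04 ± 0.07) did not pass. The calls of EGR1 and TGFA were lost in turn, EGR1 with adjusted p from 0.098 to 0.234 when any 1 of the 4 libraries was left out and TGFA with adjusted p = 0.325 without high-dose replicate 2, 0.147 without low-dose replicate 2 and 0.118 without low-dose replicate 3. RND3, a small GTP-binding protein that opposes contraction, is no member of these lists and was at 286 and 300.2 CPM against 57.6 and 54.7 CPM (2.38 ± 0.07, adjusted p = 2.81e-28).

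**Figure D2:**
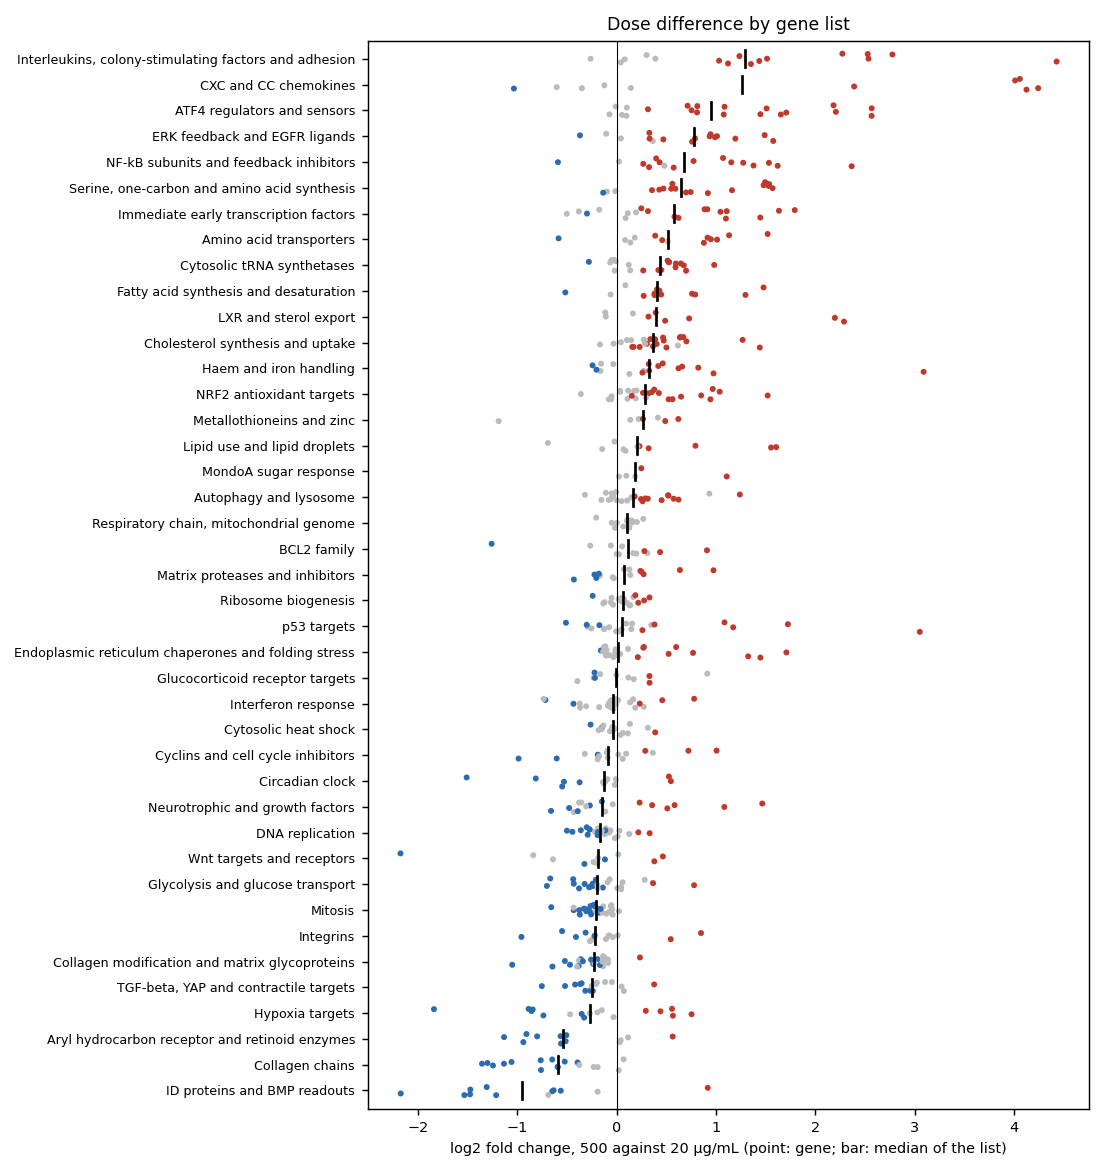
Each row is 1 of the gene lists and each point a tested member, placed by its log2 fold change between 500 and 20 µg/mL; red points rose, blue points fell, grey points did not pass, and the black bar is the median of the list. Interleukins, chemokines and ATF4 regulators stand at the top with medians of 1.29, 1.27 and 0.95, and collagen chains and ID proteins at the bottom with -0.59 and -0.95.

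Several lists had 0 members past the threshold in a direction. Among the ATF4 regulators, interleukins, cholesterol genes and LXR genes, 0 falls had an unadjusted p under 0.05 in edgeR's test and 0 passed in DESeq2, and the same held for rises of collagen chains and mitosis genes. Of NRF2 targets 1 fall, and of autophagy genes 2 falls, had an unadjusted p under 0.05, with 0 in DESeq2.

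Sterol genes rose, 17 of 25 tested with no fall (median 0.36). INSIG1, which retains SREBP in the endoplasmic reticulum, was at 306 and 320.4 CPM against 133 and 128 CPM (1.27 ± 0.05, adjusted p = 5.81e-23). The synthesis enzymes moved less: SQLE rose by 0.70 ± 0.06, FDFT1 by 0.50 ± 0.06 and HMGCS1 by 0.34 ± 0.06. FDPS (0.10 ± 0.09) and EBP (-0.03 ± 0.12) did not pass. Of 9 LXR and sterol export genes 6 rose, with ABCA1, the cholesterol exporter, at 199 and 216 CPM against 41.5 and 43.4 CPM (2.29 ± 0.16, adjusted p = 2.74e-15). MYLIP, an LXR target, did not pass (-0.12 ± 0.10). Without low-dose replicate 2 the rises of the export list numbered 3. The letters CACCCCAC of a sterol regulatory element were in 1 of 21 rising members with a window and in 2.79% of all windows.

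Fatty acid genes followed, 10 of 13 up and 1 down (median 0.41). SCD, the stearoyl-CoA desaturase, was at 687 and 709 CPM against 255 and 246 CPM (1.48 ± 0.11, adjusted p = 1.38e-14), SREBF1 at 155 and 156 CPM against 62.0 and 64.3 CPM (1.30 ± 0.09), and FASN at 471 and 482 CPM against 285 and 279 CPM (0.76 ± 0.09). ACLY (-0.06 ± 0.06), which makes cytosolic acetyl-CoA, did not pass, and SCD5 fell by 0.52 ± 0.14 (adjusted p = 0.0596 without high-dose replicate 3 and 0.0674 without low-dose replicate 3). PLIN2, the coat protein of lipid droplets, was at 165 and 167 CPM against 55.3 and 53.7 CPM (1.61 ± 0.05, adjusted p = 5.02e-26), the clearest of 5 rises among 11 lipid use genes. ANGPTL4, an inhibitor of lipoprotein lipase, rose by 0.79 ± 0.12.

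Collagen chains fell in 12 of 17 cases and none rose (median -0.59), where 8.66% of all genes tested fell. COL1A1 and COL1A2, the chains of type I collagen, were at 1406 and 1371 and 623 and 606 CPM at the high dose, against 3341 and 3245 and 1587 and 1559 CPM at the low dose. Their log2 fold changes were -1.25 ± 0.06 and -1.36 ± 0.04 (adjusted p = 1.23e-21 and 8.75e-27). COL5A1, which nucleates collagen fibrils, was at 766 and 759 CPM against 1902 and 1855 CPM (-1.30 ± 0.08). COL3A1 fell by 1.06 ± 0.09, COL11A1 by 1.14 ± 0.11 and the basement membrane chain COL4A1 by 0.65 ± 0.07, while the type VI chains COL6A1 (0.02 ± 0.05), COL6A2 (0.07 ± 0.07) and COL6A3 (-0.23 ± 0.14) did not pass. Of 22 genes of collagen modification and matrix glycoproteins 11 fell and LOX rose by 0.23 ± 0.07 (median -0.23). THBS1, a matrix glycoprotein that activates TGF-beta, was at 694 and 696 CPM against 1439 and 1444 CPM (-1.05 ± 0.09), and the collagen hydroxylases P4HA1 and PLOD2 fell by 0.65 ± 0.06 and 0.47 ± 0.06. FN1 (-0.12 ± 0.18) and TNC (-0.14 ± 0.14) did not pass, and LOX had adjusted p = 0.132 without low-dose replicate 2 and 0.0686 without high-dose replicate 3.

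The 9 mesenchymal markers, which include both type I chains, summed to 2630 to 2740 CPM at the high dose, 5600 to 5720 CPM at the low dose and 6060 to 6310 CPM in the vehicle. PDGFRB (-0.62 ± 0.08) and LUM (-0.49 ± 0.10) fell as well, while NT5E (0.11 ± 0.06) and DCN (-0.31 ± 0.11) did not pass. Among other markers the epithelial sum was 76.8 to 84.1 CPM against 142 to 144 CPM, most of it KRT18 (-0.91 ± 0.14), with CDH1 and KRT5 at 0 in both dose groups. The neuronal sum was 104 to 106 CPM against 147 to 151 CPM, with TUBB3 (-0.55 ± 0.10) and SNAP25 (-0.66 ± 0.09) lower. The oligodendrocyte sum was 116 to 117 CPM against 141 to 142 CPM. The astroglial and neural stem sum went the other way, 5540 to 5700 CPM against 5330 to 5340 CPM, most of it VIM, and the endothelial sum was 35.8 to 38.7 CPM against 32.0 to 32.8 CPM. Of 6 astroglial and neural stem markers tested 1 rose and 2 fell (median -0.13). The rise was lost when any 1 of the 4 libraries was left out and in DESeq2, and SLC1A3 was a fall, from 26.0 and 25.2 CPM to 13.6 and 14.8 CPM (-0.85 ± 0.10). The part of a shift in cell makeup in the collagen result was not tested. Contractile and TGF-beta targets fell in 8 of 16 cases with 1 rise, CCN1 (0.38 ± 0.10) (median -0.25). ACTA2, smooth muscle actin, was at 62.4 and 58.6 CPM against 99.0 and 105 CPM (-0.75 ± 0.09), TGFB2 fell by 0.42 ± 0.11, and CCN2 (0.05 ± 0.12) did not pass. Of 15 matrix proteases and inhibitors 5 rose, such as PLAUR (0.64 ± 0.08) and ADAMTS1 (0.97 ± 0.10), and 4 fell, such as MMP2 (-0.43 ± 0.05). Of 15 integrins 5 fell and 2 rose, ITGB3 (0.85 ± 0.17) and ITGA2 (0.54 ± 0.16). Over all genes tested 9.92% rose and 8.66% fell. Leaving out any 1 of the 4 libraries left 3 integrin falls, and 2 protease falls without high-dose replicate 3 or low-dose replicate 3. Single calls that ended were CCN1 (adjusted p = 0.0915 without low-dose replicate 3), TGFB2 (adjusted p = 0.0675 without low-dose replicate 2) and ITGA2 (adjusted p = 0.0545 without low-dose replicate 2, 0.126 without high-dose replicate 3 and 0.0811 without low-dose replicate 3), and DCN passed with adjusted p = 0.024 without low-dose replicate 2.

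ID proteins and other readouts of bone morphogenetic protein signalling had the lowest median of all lists, -0.95, with 9 of 12 lower and 1 higher. All 4 ID genes fell: ID1 was at 137 and 139 CPM against 327 and 315 CPM (-1.21 ± 0.14), ID3 at 110.3 and 96.8 CPM against 252 and 261 CPM (-1.31 ± 0.14) and ID4 at 1.20 and 1.24 CPM against 3.10 and 3.64 CPM (-1.47 ± 0.22), beside ID2 above. SMAD6, an inhibitor induced by the pathway, was at 5.69 and 6.18 CPM against 16.7 and 17.6 CPM (-1.53 ± 0.09, adjusted p = 3.65e-17). BMP4, a ligand, was at 4.69 and 4.28 CPM against 12.3 and 12.7 CPM (-1.48 ± 0.12). GREM1, a secreted antagonist of these ligands, was the gene that rose, from 9.67 and 9.63 CPM to 18.0 and 18.4 CPM (0.92 ± 0.09, adjusted p = 4.98e-11). In each gene the 2 high-dose libraries lay on the same side of all low-dose, medium-dose and vehicle libraries. NOG (-0.69 ± 0.26) and HEY1 (-0.19 ± 0.12) did not pass.

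Hypoxia targets went both ways, 5 up and 7 down of 17 (median -0.27). EGLN3, a prolyl hydroxylase that marks HIF for destruction, was at 2.00 and 1.70 CPM against 6.57 and 6.67 CPM (-1.84 ± 0.16, adjusted p = 2.08e-12). CA9, a carbonic anhydrase, was at 20.0 and 17.9 CPM against 34.1 and 34.6 CPM (-0.86 ± 0.10), BNIP3 at 55.3 and 52.9 CPM against 98.3 and 96.2 CPM (-0.85 ± 0.08), and PFKFB4 at 16.1 and 17.1 CPM against 29.9 and 31.5 CPM (-0.89 ± 0.07). VEGFA (0.44 ± 0.05), ADM (0.56 ± 0.12) and DDIT4 (0.75 ± 0.10) rose, of which DDIT4 also stands in the ATF4 list. Of 23 genes of glycolysis and glucose transport 12 fell and 2 rose (median -0.19). LDHA, lactate dehydrogenase, was at 1120.0 and 1112 CPM against 1771 and 1778 CPM (-0.67 ± 0.06, adjusted p = 1.32e-12), and the lactate exporter SLC16A3 fell by 0.43 ± 0.07 and PGK1 by 0.44 ± 0.07. The glucose transporters diverged: SLC2A1 fell by 0.32 ± 0.05 and SLC2A3 rose by 0.78 ± 0.07. L-15 medium carries galactose as its sugar, and its enzymes GALK1 (0.28 ± 0.11) and GALT (0.04 ± 0.08) did not pass. TXNIP, a target of the sugar sensor MondoA, was at 19.0 and 20.1 CPM against 8.57 and 9.49 CPM (1.11 ± 0.10), and its relative ARRDC4 did not pass (0.19 ± 0.12). Of 13 protein-coding genes of the mitochondrial genome none passed in either direction in edgeR's test, 0 had an unadjusted p under 0.05 and 0 passed in DESeq2 (log2 fold changes from -0.21 to 0.27). When any 1 of the 4 libraries was left out 7 glycolysis genes fell, and 1 rose without high-dose replicate 3 or low-dose replicate 3.

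Mitosis genes fell by small amounts in 17 of 28 cases and none rose (median -0.21). KIF20A, a kinesin of cytokinesis, was at 79.5 and 79.6 CPM against 128 and 124 CPM (-0.66 ± 0.05, adjusted p = 8.91e-14). CCNA2, cyclin A, was at 54.6 and 57.7 CPM against 73.4 and 78.1 CPM (-0.43 ± 0.06), and PLK1 at 126 and 125 CPM against 159 and 166 CPM (-0.37 ± 0.05). AURKB (-0.05 ± 0.09) and UBE2C (-0.04 ± 0.13) did not pass. In DNA replication 11 of 26 fell and 2, CDC6 (0.22 ± 0.04) and CDC45 (0.33 ± 0.09), rose (median -0.17). TYMS fell by 0.45 ± 0.07 and MCM3 by 0.36 ± 0.05. The inhibitors of cyclin-dependent kinases did not share a direction: CDKN1A (p21) was at 37.5 and 36.4 CPM against 18.6 and 18.2 CPM (1.01 ± 0.10), CDKN2B (p15) at 50.9 and 51.2 CPM against 30.7 and 31.2 CPM (0.72 ± 0.07), and CDKN2C (p18) at 62.2 and 61.2 CPM against 125 and 119.6 CPM (-0.99 ± 0.08). CCND1 (0.02 ± 0.07) did not pass. Fewer of these small falls passed with a library left out, in both lists, as was so over all genes tested. CDC45 had adjusted p = 0.0504 without high-dose replicate 2 and 0.0514 without low-dose replicate 2.

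Of 21 genes in the list of p53 targets 6 rose and 3 fell (median 0.05), where 9.92% of all genes tested rose and 8.66% fell. CDKN1A, SESN2 and PMAIP1, which all rose, were placed in other lists and are not in these counts. Beside GDF15, TNFRSF10B, a death receptor, was at 126 and 132 CPM against 56.2 and 58.1 CPM (1.17 ± 0.06, adjusted p = 1.17e-19), and BBC3 (PUMA) rose by 1.72 ± 0.30 at a low level. MDM2 (0.16 ± 0.07), FDXR (-0.01 ± 0.16) and RRM2B (-0.08 ± 0.10) did not pass, and ZMAT3 fell by 0.51 ± 0.08. MDM2 passed with adjusted p = 0.0314 without low-dose replicate 3, and the falls numbered 1 without high-dose replicate 2, low-dose replicate 2 or low-dose replicate 3. GDF15 and TNFRSF10B are known to respond to ATF4 and CHOP as well as to p53. In the BCL2 family PMAIP1 (NOXA) was at 66.3 and 72.8 CPM against 37.3 and 36.8 CPM (0.91 ± 0.07), MCL1 rose by 0.28 ± 0.05 and BCL2L1 by 0.44 ± 0.07, and BMF fell by 1.26 ± 0.20, which made 3 rises and 1 fall of 12 tested. For the fall, that count lies near the share over all genes tested, 8.66%. Autophagy and lysosome genes rose in 11 of 24 cases and none fell (median 0.16). SQSTM1 (p62), the cargo receptor, was at 1273 and 1251 CPM against 534 and 535 CPM (1.24 ± 0.07, adjusted p = 4.55e-19), and MAP1LC3B rose by 0.62 ± 0.07, while the lysosomal hydrolases CTSB (0.00 ± 0.05) and CTSD (0.05 ± 0.07) did not pass.

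**Figure D3:**
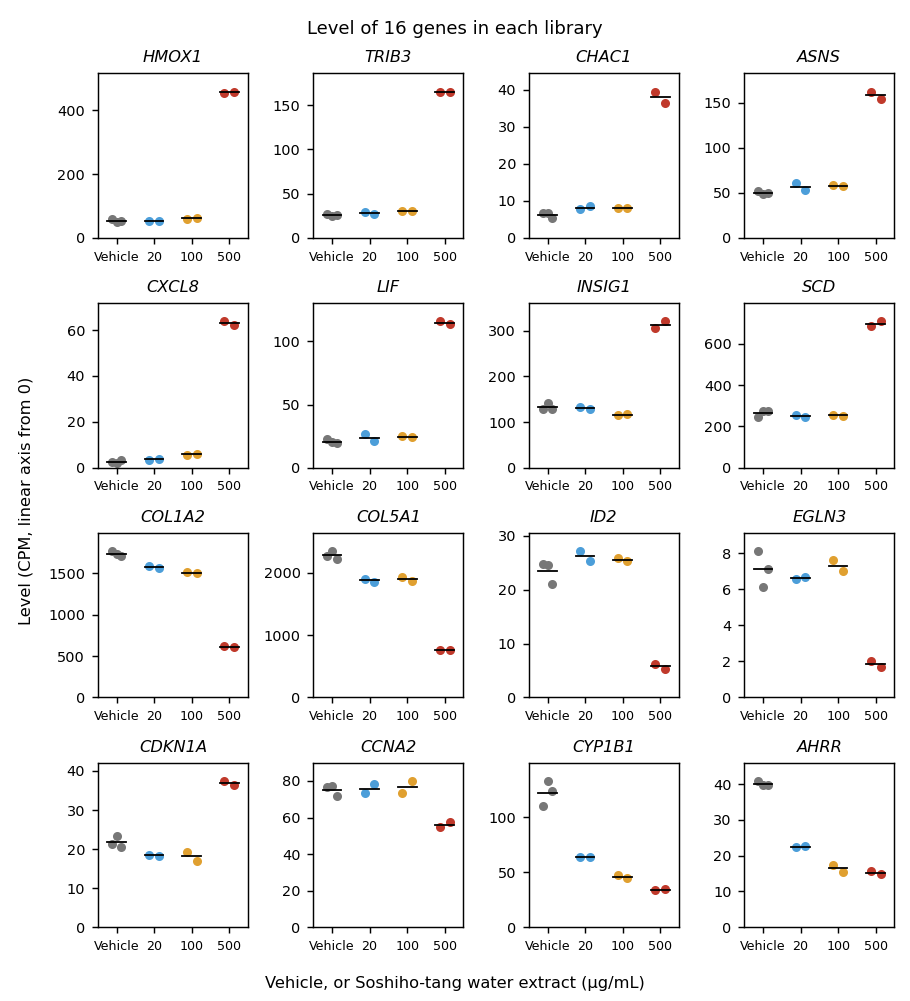
Level of 16 genes in CPM, on linear axes from 0, in the 3 vehicle libraries and in the 2 libraries at each of 20, 100 and 500 µg/mL of Soshiho-tang water extract; points are libraries and bars the mean of a group. In most panels the 500 µg/mL points stand apart from all others, whereas CYP1B1 and AHRR are already lower at 20 µg/mL than in the vehicle libraries, which form a name group of their own.

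Genes of the aryl hydrocarbon receptor and of retinoid metabolism fell in 8 of 12 cases and 1 rose (median -0.54). CYP1B1, a cytochrome P450 induced by the receptor, was at 110.5, 133 and 124 CPM in the vehicle, 64.0 and 63.7 CPM at 20, 47.2 and 44.9 CPM at 100 and 33.7 and 34.3 CPM at 500 µg/mL. The fall from the low to the high dose was -0.91 ± 0.09 (adjusted p = 1.96e-11). AHRR encodes a protein that represses the receptor, and it stood at 40.9, 39.9 and 39.7 CPM in the vehicle, 22.4 and 22.6 CPM at 20, 17.5 and 15.5 CPM at 100 and 15.7 and 14.9 CPM at 500 µg/mL, and its step of -0.45 ± 0.10 between 20 and 100 µg/mL did not pass (adjusted p = 0.158). AHR itself was the rise, from 73.2 and 70.5 CPM to 103 and 109.6 CPM (0.56 ± 0.09). Of the retinoid genes CYP26B1, which degrades retinoic acid, was at 20.5 and 18.1 CPM against 39.3 and 35.0 CPM (-0.94 ± 0.10), DHRS3 fell by 0.80 ± 0.11, and the uptake receptor STRA6 by 0.51 ± 0.06. ALDH1A3, which makes retinoic acid, did not pass between high and low dose (0.12 ± 0.05, adjusted p = 0.0961), yet differed between medium and low dose, as given below. It passed with adjusted p = 0.0403 without high-dose replicate 2, which made 2 rises in the list.

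The remaining lists had few members past the threshold or were split between directions. As 9.92% of all genes tested rose and 8.66% fell, the interferon counts between high and low dose lie near those of any genes. Of 24 interferon response genes 3 rose and 2 fell (median -0.04): IRF1 by 0.78 ± 0.08, XAF1 by 0.46 ± 0.15 and STAT2 by 0.23 ± 0.08 among the rises, IFIT1 by 0.72 ± 0.14 and IFI44L by 0.43 ± 0.11 among the falls. Metallothioneins and zinc genes gave 3 rises of 7 tested, the largest in the zinc importer SLC39A14 (0.62 ± 0.08). The circadian list had 2 rises, NR1D1 (0.55 ± 0.10) and BMAL1 (0.53 ± 0.13), and 5 falls of 13, with HLF at 2.30 and 2.03 CPM against 6.46 and 5.92 CPM (-1.51 ± 0.14), and DBP (-0.81 ± 0.17) and TEF (-0.55 ± 0.07) lower beside it. Among 17 neurotrophic and growth factors 6 rose and 5 fell. GDNF was at 1.36 and 1.14 CPM against 0.473 and 0.678 CPM (1.08 ± 0.37, adjusted p = 0.0316), while BDNF fell by 0.27 ± 0.06 and IGFBP5 by 0.66 ± 0.11. The Wnt list had 2 rises and 3 falls of 11, LGR6 among the falls, and DKK1, a secreted Wnt inhibitor, rose by 0.47 ± 0.08. Glucocorticoid receptor targets gave 2 rises and 2 falls of 11, and ribosome biogenesis 4 rises and 1 fall of 18. Several calls in these lists ended with a library left out. The log2 fold change of STAT2 was 0.247 without high-dose replicate 2, 0.219 without high-dose replicate 3 and 0.185 without low-dose replicate 3. For XAF1 it was 0.348 without high-dose replicate 3 and 0.203 without low-dose replicate 3. For IFI44L it was -0.309 without high-dose replicate 2 and -0.24 without low-dose replicate 2, and for BMAL1 0.44 without high-dose replicate 2. GDNF had adjusted p from 0.0596 to 0.22 when any 1 of the 4 libraries was left out, and without low-dose replicate 2 the growth factor rises numbered 2. The ribosome biogenesis rises numbered 2 without high-dose replicate 2, low-dose replicate 2 or low-dose replicate 3, and the fall of that list was lost without low-dose replicate 2, high-dose replicate 3 or low-dose replicate 3. Glucocorticoid receptor falls numbered 1 when any 1 of the 4 libraries was left out, and the rises of that list 1 without low-dose replicate 2. Interferon response rises numbered 1 without high-dose replicate 3 or low-dose replicate 3, and the falls of that list 1 without high-dose replicate 2 or low-dose replicate 2. Without low-dose replicate 3 those falls numbered 4.

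The medium dose placed these differences on the dose scale. Between 500 and 100 µg/mL 1735 genes rose and 1497 fell (9.72% and 8.39%), of which 210 and 174 reached 2-fold. Between 100 and 20 µg/mL 2 genes passed (0.0112%), both lower at 100 µg/mL, and 469 had an unadjusted p under 0.05 in edgeR's test. When any 1 of those 4 libraries was left out 0 passed, with 403 to 546 at an unadjusted p under 0.05. These comparisons share the medium-dose libraries with each other and the high-dose or low-dose libraries with the main one. The 5 genes with the lowest adjusted p between 500 and 100 µg/mL were HMOX1 (2.90 ± 0.08), RND3 (2.31 ± 0.07), SESN2 (2.20 ± 0.07), THBD (2.51 ± 0.08) and HERPUD1 (1.71 ± 0.06). At 100 µg/mL HMOX1 stood at 60.4 and 61.8 CPM, SESN2 at 23.7 and 24.5 CPM and TRIB3 at 30.4 and 30.9 CPM, all far nearer to the low-dose than to the high-dose libraries. CXCL8 was at 5.50 and 6.03 CPM at 100 µg/mL, above both low-dose libraries, but the step of 0.68 ± 0.15 from the low dose did not pass (adjusted p = 0.253). The 2 genes that passed between medium and low dose were CYP1B1 (-0.47 ± 0.08, adjusted p = 0.0138) and ALDH1A3 (-0.28 ± 0.05, adjusted p = 0.0138). ALDH1A3 had no single direction: it was at 418 and 407 CPM at 20, 335 and 345 CPM at 100 and 429.5 and 464 CPM at 500 µg/mL, and at 585, 575 and 586 CPM in the vehicle.

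With the vehicle as the reference 2526 genes rose and 2887 fell (14.2% and 16.2%, 30.3% in all; 3459 in all without high-dose replicate 2), and these libraries share the high dose with the main comparison. The median over all genes was -0.002. The collagen list had 14 falls of 17 there (median -0.76), the ATF4 regulators 14 rises of 20 (median 1.00) and the NRF2 list 16 rises of 26 (median 0.26). Against the vehicle the collagen modification and matrix glycoprotein list had 18 falls of 22 (median -0.42), beside 11 falls and 1 rise against the low dose. THBS1 was at 1771, 1869 and 2056 CPM in the vehicle, above its low-dose level, and fell by 1.45 against it. SLC7A11 stood at 112, 133 and 138 CPM in the vehicle, also above its low-dose level of 96.0 and 95.9 CPM. Integrins had 12 falls and 1 rise of 15 against the vehicle, beside 5 and 2 against the low dose. Interferon response genes had 8 rises and 2 falls of 24 against the vehicle (median 0.23), beside 3 and 2 against the low dose.

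Yijin-tang, another decoction, had been given at the same 500 and 20 µg/mL with 3 libraries per dose and no library in common with Soshiho-tang. Its own dose difference held 644 rises and 605 falls (3.61% and 3.39%). Both decoctions raised 280 genes, which is 15.8% of the rises of Soshiho-tang and 43.5% of those of Yijin-tang, and lowered 306 (19.8% and 50.6%). Another 61 genes rose under Soshiho-tang and fell under Yijin-tang (3.4% of the rises of Soshiho-tang), and 40 did the reverse (2.6% of its falls). Over all genes tested 3.39% fell and 3.61% rose under Yijin-tang. The 61 thus lie near the share of any genes and the 40 below it. Across the 17851 genes, which are not independent replicates, Pearson's r between the dose differences was 0.20. The difference of the dose differences was tested as an interaction in the same fit: 911 genes were higher and 767 lower under Soshiho-tang (5.10% and 4.30%, 9.40% in all).

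The 6 largest differences on the higher side, among genes that reached 5 CPM, included HMOX1, which is described first. It was at 59.2 CPM at the high and 56.1 CPM at the low dose of Yijin-tang (means of 3), a dose difference of 0.08, and the interaction was 3.01 ± 0.10 (SE, adjusted p = 4.73e-26). GDF15 (3.20 ± 0.19), THBD (2.70 ± 0.11), TRIB3 (2.50 ± 0.12), ADM2 (2.48 ± 0.17) and CHAC1 (2.24 ± 0.15) were the other 5. On the lower side stood RASL11A (-2.37 ± 0.16), MIR210HG (-2.31 ± 0.26), ID2 (-1.85 ± 0.14), CYP24A1 (-1.81 ± 0.12) and EGLN3 (-1.75 ± 0.20). CYP24A1, which degrades vitamin D, was at 5.09 and 4.94 CPM against 12.8 and 13.4 CPM under Soshiho-tang (-1.39 ± 0.10), and its dose difference under Yijin-tang was 0.42. By list, the interaction was higher in 14 of 20 ATF4 regulators, 17 of 25 cholesterol genes, 11 of 26 NRF2 targets and 8 of 13 fatty acid genes. It was lower in 12 of 17 collagen chains, 8 of 12 ID and BMP readouts and 19 of 28 mitosis genes. With the dose of Yijin-tang 7 of the 28 mitosis genes rose and 10 of 25 cholesterol genes fell.

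Cytokine genes were split in this test. The interaction of CXCL8 was 0.31 ± 0.18 (adjusted p = 0.346), with a dose difference of 3.82 under Yijin-tang and 4.13 ± 0.13 under Soshiho-tang, and that of IL6 was 0.18 ± 0.21 (adjusted p = 0.723). Neither passed, which does not show that the 2 decoctions act alike on these genes. Of 16 interleukins, colony-stimulating factors and adhesion genes 2 were higher and 5 lower under Soshiho-tang. LIF was higher by 1.36 ± 0.11 (adjusted p = 1.09e-12) and SOD2 lower, at -0.40 ± 0.07 (adjusted p = 6.65e-05). TXNIP was lower as well (-1.38 ± 0.12, adjusted p = 2.16e-11), with dose differences of 2.49 under Yijin-tang and 1.11 ± 0.10 under Soshiho-tang. Interferon response genes were lower in 10 of 24 cases.

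**Figure D4:**
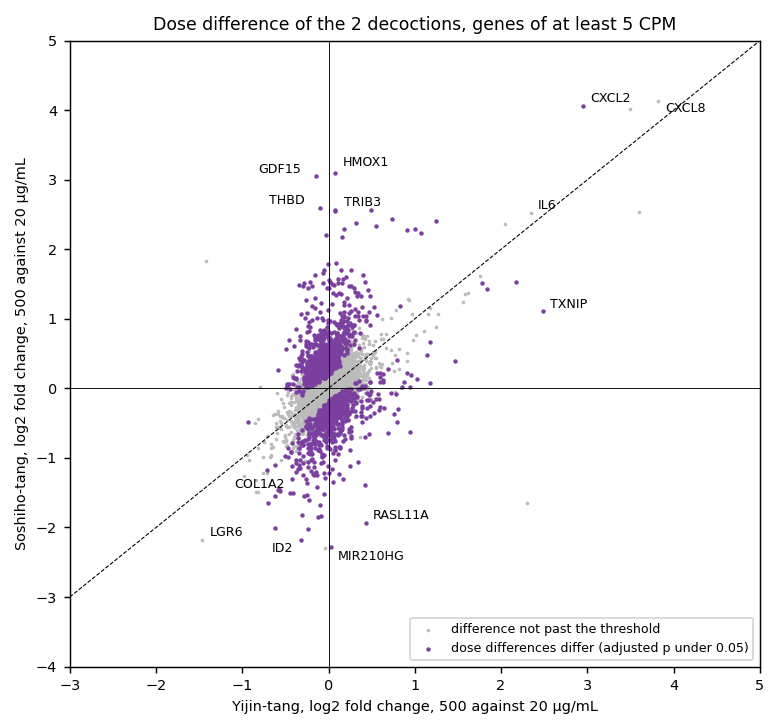
Each point is a gene that reached 5 CPM in any of the 4 groups (11367 drawn, 1 more lies below the axis), placed by its log2 fold change between 500 and 20 µg/mL under Yijin-tang (horizontal) and Soshiho-tang (vertical); the dashed line marks equal values. Purple points are genes whose dose differences differ; HMOX1, GDF15 and TRIB3 lie near 0 for Yijin-tang, and CXCL8 and IL6 lie near the dashed line.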

How the data were processed

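RNA of SW1783 cells was read by strand-specific RNA-seq. The authors deposited 1 table of expected counts for 60675 genes in 60 libraries, made per the submitters' processing notes with FastQC 0.11.9, Trim Galore 0.6.5, STAR 2.7.3a and RSEM 1.3.3 on hg38. Which annotation was counted, and with which strand setting, is not given in the sources used here, so reads of overlapping, antisense and near-identical genes may be shared. No column of per-sample values was left unused (0). The expected counts, of which 10.86% were not whole, were rounded, and groups were taken from the sample labels.

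The 54 libraries of the 19 groups with 2 or more libraries were fitted together with edgeR 4.0.16 in R 4.3.3 (filterByExpr by group, TMM scaling, quasi-likelihood F test), which tested 17851 genes with Benjamini-Hochberg adjustment at 0.05. The SE of a log2 fold change is its size divided by the square root of F, and CPM use TMM-scaled library sizes. Residual degrees of freedom were 35. On simulated counts for the comparison of high and low dose over 17851 genes, 75 of 100 genes changed 1.5-fold and 91 of 100 changed 2-fold were recovered, and 5 of 171 calls were false. Each simulated gene had the spread typical of its level and otherwise the same mean in all groups. The changed genes were drawn from those above a minimum level. The real counts scatter more freely, so these rates need not hold for them. Alternatives were DESeq2 1.42.0, its size factors in edgeR, no low-count filter, the replicate number as a block, removal of length and GC trends (99.2% of tested genes had both), smaller sets of libraries, and leaving out each library.

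Genes were named as the 12 largest rises and 12 largest falls between high and low dose with a symbol, an adjusted p under 0.05, a mean of at least 5 CPM in either group, and both high-dose libraries beyond both low-dose and all 3 vehicle libraries. The 5 genes with the lowest adjusted p were taken against the medium dose, the 6 largest differences each way against Yijin-tang among genes that reached 5 CPM, and members of gene lists could be named whether or not they passed. RND3 came in by the rule for the medium dose. A few genes that met these rules are not reported here. The comparison, the lists and the members were chosen with earlier results of these data known. Positions are from GENCODE 29 on hg38, and promoter windows are from RefSeq on GRCh38.p14.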

Additional observations from a re-analysis of the deposited data

Results flagged for a closer look

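The dose difference of Soshiho-tang differed from that of Yijin-tang, by the interaction test over the same 500 and 20 µg/mL, in 1678 genes. The 11 genes below were taken from both ends of that test. On the higher side the difference of log2 fold changes, Soshiho-tang minus Yijin-tang, was 3.20 in GDF15, 3.01 in HMOX1, 2.70 in THBD, 2.50 in TRIB3, 2.48 in ADM2 and 2.24 in CHAC1. On the lower side it was -2.37 in RASL11A, -2.31 in MIR210HG, -1.85 in ID2, -1.81 in CYP24A1 and -1.75 in EGLN3. Groups of 2 and 3 libraries were too small for a test of single outlying libraries.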

How the results depend on the processing

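Between high and low dose 3316 genes passed, 3324 with DESeq2's size factors, 3184 in DESeq2, 2843 without the low-count filter, 4160 with length and GC removed, 4969 with only the 4 libraries compared, and 2149 to 2286 with 1 library left out, where the lone library is assumed to vary like the other groups. Of these 2149 calls, made without low-dose replicate 3, 2068 were among the 3316. With the replicate number as a block, 3345 passed, and 5053 when only the 6 Soshiho-tang libraries were fitted with the replicate block. Deviations of same-numbered libraries from their group correlated at r = 0.18, -0.03 and 0.01 for the 3 pairs of dose groups. With 2 libraries a group this cannot tell whether a number marks a shared culture or day, and the labels do not say. Against the vehicle 5413 genes passed, and 3459 to 5188 with 1 library left out. Medium against low dose gave 2 genes, 59 without the filter, 10 with only the libraries compared and 0 with any 1 library left out. The interaction with Yijin-tang gave 1678, 2719 with only the libraries compared and 1186 to 1517 with 1 library left out. The cause of these shifts was not tested. Of 198 named genes that passed between high and low dose, 178 passed with the same sign under every alternative run, and the other 20 kept the sign and lost the call in at least 1. DESeq2 lost 1 (GDNF), length and GC removal 1 (MTHFD1) and the lack of the low-count filter 7. Of 51 named genes that did not pass, 13 passed in at least 1 alternative. COL6A3, DCN, FN1, GALK1, JUNB, NOG, NT5E, TFRC, TNC and TXN passed with only the 4 libraries compared. ALDH1A3, HSPA5 and MDM2 passed with only the Soshiho-tang libraries and the replicate block. That these genes did not pass in the main fit thus depends on the spread taken from other groups. With 2 libraries a group the fit rests on the spread of other groups, and genes with few counts are limited by depth.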
